A study of Schizosaccharomyces pombe with 4 samples.

Results

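The right arm interior of chromosome 1 of fission yeast, Schizosaccharomyces pombe, was taken as every array probe of that chromosome placed between 3900001 and the last such probe at 5474401, with the chromosome's outer end left out, a rule that uses position alone. It holds 5206 of the 41551 probes of the array and spans 1574.6 kb. The study hybridised BrdU-labelled and input DNA to 4 arrays: series 1 and series 2 each hold 1 wild-type array and 1 array labelled fft3Δ, numbered here by their series. All 4 cultures, controls included, carried the cdc25-22 allele, the thymidine kinase module Pnmt1-TK and the nucleoside transporter module Padh1-hENT. A block at the G2/M boundary (37 °C) was lifted by cooling to 26 °C, with hydroxyurea (10 mM) and BrdU (200 µM) added at that time, and cells were taken at 120 min. The DNA was sheared to fragments of 500 to 1000 bp, immunoprecipitated with an antibody to BrdU, amplified and given the dye Cy5, while amplified DNA of the whole-cell extract, the input, was given Cy3. The labels do not say that the arrays of a group came from separate cultures, so p-values measure the spread between these arrays only, which may be technical. No cells without BrdU or without hydroxyurea were analysed here.

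Replication starts at origins, and those of fission yeast are AT-rich intergenic stretches bound by the origin recognition complex, of which some fire early in S phase and others late or rarely. Hydroxyurea starves cells of nucleotides, so forks stall soon after they start, and the checkpoint holds back later origins. BrdU is a thymidine analogue built into new DNA, and the 2 modules let yeast take it up and phosphorylate it, so that BrdU in hydroxyurea marks the surroundings of origins that fired first. Fft3 is a Snf2-family chromatin remodeller, and the study asked about replication of the genome in cells without it. The fft3 gene was not placed on the array's coordinates, so its deletion was not checked on these arrays, which are therefore called labelled fft3Δ.

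Each value is a log2 ratio of immunoprecipitated over input signal, set to 0 at the median of all probes of its array, so that 1 unit is a change of 2-fold and a level of 0 is the typical probe, not absence of BrdU. Probes were averaged in windows of 2 kb. Of 787 windows in the arm, 782 held at least 3 probes, with a median of 7, and 5 held fewer, at 3994001, 4522001, 5186001, 5188001 and 5190001. Every arm probe was well above background in both channels of all 4 arrays and none was saturated. A non-uniformity flag removed 81 arm probes from wild-type array 2, 2 from labelled fft3Δ array 1 and none from the others. Positions are those of the array design, whose genome build is not given in the sources used here, and no gene was placed on them.

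Wild-type array 2 stood apart in its input channel. Over the arm windows its input correlated at 0.66 to 0.70 with the other 3, which correlated at 0.96 to 0.98 with each other (Pearson, across 782 windows that share probes and base composition). Its median Cy3 signal was 217 times background, against 55.5 on labelled fft3Δ array 2 and 18.1 and 17.3 on the arrays of series 1. The arrays of series 1 shared a slide and a scanner, while those of series 2 lay on separate slides read on another scanner, so differences are also given within each series. In the ratio, the lowest correlation between arrays was 0.88, for wild-type array 2 and labelled fft3Δ array 1, and the highest 0.98, for wild-type array 1 and labelled fft3Δ array 2. Both wild-type arrays correlated better with labelled fft3Δ array 2 (0.98 and 0.94) than with each other (0.92).

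The arm alternated between BrdU-rich and BrdU-poor stretches, on all 4 arrays. Its mean level was -0.15 on wild-type array 1, -0.10 on wild-type array 2, -0.15 on labelled fft3Δ array 1 and -0.16 on labelled fft3Δ array 2. Windows ranged from -2.31 to 1.13 on wild-type array 1, from -2.03 to 1.53 on wild-type array 2, from -2.19 to 1.27 on labelled fft3Δ array 1 and from -2.30 to 1.30 on labelled fft3Δ array 2. A total of 299 windows lay above 0 on all 4 arrays, 341 lay below 0 on all 4, and 142 had mixed signs. At the extremes, 59 windows exceeded 0.5 on every array and 53 fell under -1 on every array.

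**Figure D1:**
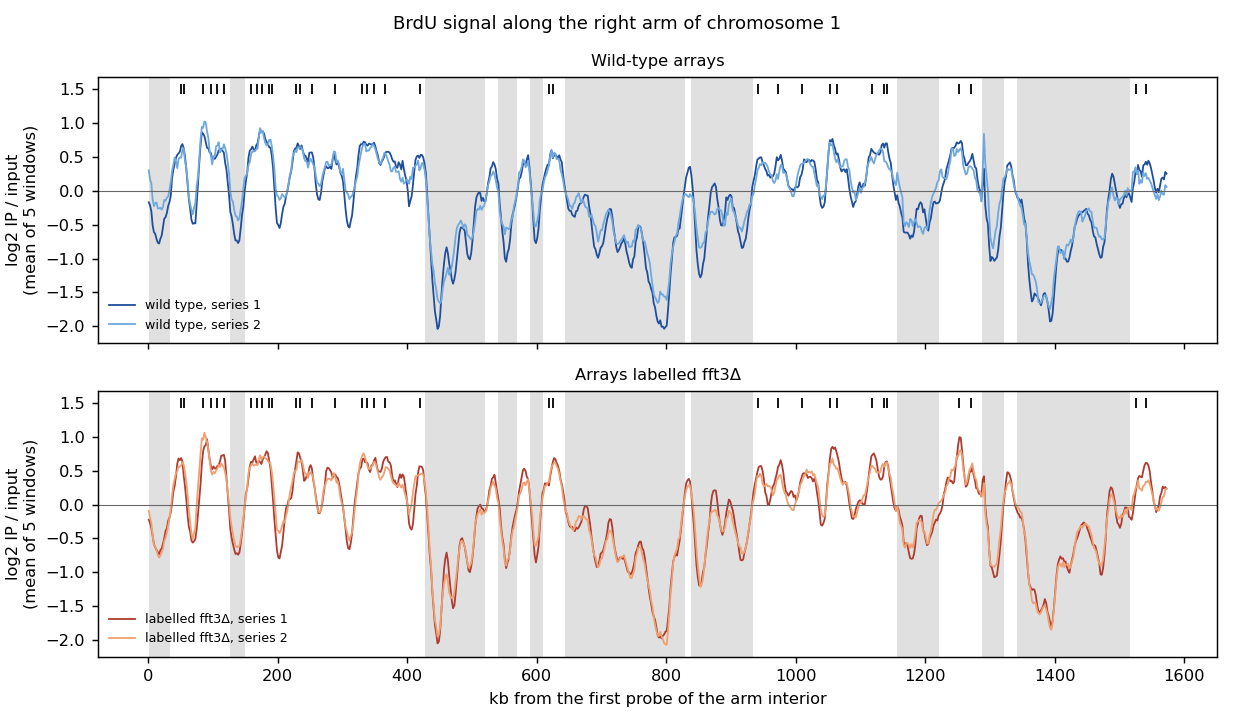
Log2 ratio of immunoprecipitated over input signal (mean of 5 windows, vertical axis) against the distance in kb from the first probe of the arm (horizontal axis), with a line per array, late runs shaded and the 34 peaks marked by ticks. The upper panel shows the wild-type arrays and the lower panel those labelled fft3Δ, and the late runs from 4328001, 4544001 and 5242001 fall below -1 on all 4 lines.

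In steps of 300 kb, 3 of 6 means lay above 0 and 3 below. The first 300 kb, from 3900001, had levels of 0.19 and 0.31 on the wild-type arrays and 0.15 and 0.19 on the labelled fft3Δ arrays, giving array 1 before array 2 in each pair. The next, from 4200001, lay at -0.15, -0.12, -0.17 and -0.18 in the same order. The lowest, from 4500001, lay at -0.55, -0.47, -0.52 and -0.55, and it was followed by 0.11, 0.11, 0.11 and 0.10 from 4800001. From 5100001 the level was -0.43, -0.35, -0.41 and -0.39, and the last 37 windows, from 5400001, were back above 0 at 0.14, 0.07, 0.15 and 0.09. The sign of each of these 6 means was the same on all 4 arrays.

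Runs were drawn where the running mean of 11 windows stayed on one side of 0 for at least 20 kb. They are called early at or above 0 and late below 0, for their BrdU signal only, since replication time itself was not measured. Runs were drawn on the mean of the 4 arrays, so that their levels describe them and are no test. There were 13 early runs over 752 kb and 10 late runs over 754 kb, with 68 kb in shorter pieces. Early runs were 20 to 156 kb long with a median of 52 kb, and late runs 20 to 186 kb with a median of 50 kb. In the early runs 281 of 373 windows were above 0 on all 4 arrays, and in the late runs 308 of 375 were below 0 on all 4.

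The highest early run, chr1:4050001-4096000, had levels of 0.63 and 0.63 on the wild-type arrays and 0.54 and 0.57 on the labelled fft3Δ arrays. It held 5 of the 34 peaks in 46 kb. The run chr1:3974001-4026000 had 0.50 and 0.62 in wild type and 0.51 and 0.58 in labelled fft3Δ, and its input was also high, at 0.79, 0.17, 0.80 and 0.68 above the array median. The run chr1:3934001-3962000 lay at 0.45 and 0.43 in wild type and 0.36 and 0.43 in labelled fft3Δ. The run chr1:4218001-4328000, 110 kb long with 5 peaks, lay at 0.45, 0.39, 0.41 and 0.39. The run chr1:4510001-4544000, 34 kb long with 2 peaks, lay at 0.43, 0.34, 0.42 and 0.39, between the late runs from 4490001 and 4544001. The longest early run, chr1:4834001-4990000, was lower, at 0.28, 0.27, 0.30 and 0.27, and also held 5 peaks. Its windows ranged from -0.44 to 0.97 as 4-array means, and 51 of 78 were above 0 on all 4 arrays.

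The other early runs were chr1:4114001-4200000, chr1:4420001-4440000, chr1:4470001-4490000, chr1:5000001-5056000, chr1:5122001-5188000, chr1:5222001-5242000 and chr1:5416001-5474000. Their 4-array means were between 0.18 and 0.39. The last one, next to the end of the stretch, had the lowest level of all early runs, and only 16 of its 29 windows were above 0 on every array. Of the early runs, 3 of 20 kb each, at 4420001, 4470001 and 5222001, held no peak.

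The lowest late run by its mean was chr1:4328001-4420000, with levels of -0.87 and -0.79 on the wild-type arrays and -0.88 and -0.88 on the labelled fft3Δ arrays. The longest, chr1:4544001-4730000, covered 186 kb at -0.81, -0.67, -0.78 and -0.81, and 82 of its 93 windows were below 0 on all 4 arrays. The run chr1:5242001-5416000 covered 174 kb at -0.75, -0.68, -0.71 and -0.72. Next came chr1:5188001-5222000, at -0.69, -0.27, -0.64 and -0.56, where wild-type array 2 was far above the other 3, and chr1:4440001-4470000, at -0.53, -0.40, -0.47 and -0.50. The other late runs were chr1:3902001-3934000, chr1:4026001-4050000, chr1:4490001-4510000, chr1:4738001-4834000 and chr1:5056001-5122000, with 4-array means between -0.44 and -0.32.

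Within the late runs from 4328001, 4544001 and 5242001 the signal was lowest over short stretches. Under -1 on all 4 arrays lay 53 windows, 49 of them in 5 unbroken stretches. The stretch chr1:4338001-4356000 lay at -1.76, -1.49, -1.79 and -1.71, chr1:4672001-4706000 at -1.79, -1.49, -1.77 and -1.80, and chr1:5268001-5302000 at -1.64, -1.55, -1.55 and -1.61. The others, chr1:4366001-4372000 and chr1:5260001-5266000, were 6 kb each. The single lowest window, 4346001, had -2.31 and -1.72 in wild type and -2.19 and -2.24 in labelled fft3Δ, and the next 4 lowest, at 4696001, 4698001, 4688001 and 4700001, had 4-array means of -2.03 to -2.00. In each of these 5 windows wild-type array 2 was the least negative. Input in the 53 windows was below the median as a mean on 3 arrays, at -0.36, -0.44 and -0.33 on wild-type array 1, labelled fft3Δ array 1 and labelled fft3Δ array 2, and at 0.04 on wild-type array 2. Window 4698001 was an exception, with an input of 0.55, 0.48, 0.41 and 0.48.

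**Figure D2:**
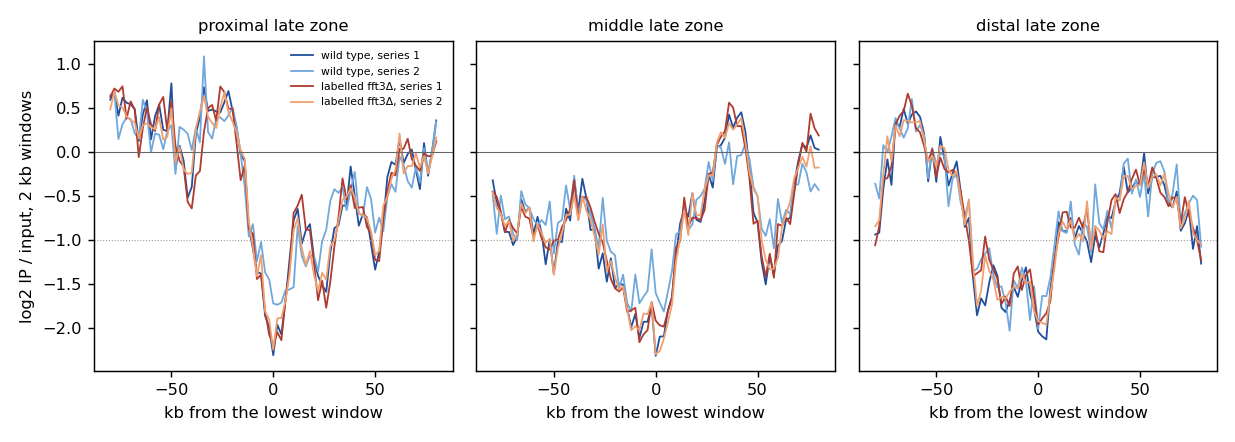
Log2 ratio of 2 kb windows (vertical axis) within 80 kb of the lowest window (horizontal axis, kb) of the late runs from 4328001, 4544001 and 5242001 (left to right), with a line per array and a dotted line at -1. All 4 lines fall under -1 around the centre of each panel, and wild-type array 2 stays above the others at the bottom of the left and middle panels.

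The contrast between early and late runs was taken within each array. The early mean was 0.38 and 0.36 on the wild-type arrays and 0.37 and 0.35 on the labelled fft3Δ arrays, and the late mean was -0.67 and -0.55 against -0.65 and -0.65. Early minus late was therefore 1.05 and 0.90 in wild type (mean 0.97 ± 0.10, SD, n = 2) and 1.02 and 1.0 in labelled fft3Δ (mean 1.01 ± 0.008, SD, n = 2). The groups overlapped, and the difference of 0.04 was -0.03 in series 1 and 0.10 in series 2 (exact permutation test, two-sided, p = 1, where 0.333 is the smallest p that 2 arrays against 2 can give). It turned to -0.04 without wild-type array 2. In the Cy5 signal alone the contrast was 1.35, 0.85, 1.37 and 1.28, and in the input alone 0.30, -0.05, 0.35 and 0.28. The input thus rose and fell with the ratio on every array but wild-type array 2. The part of the input in the contrast was not tested.

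The borders between these runs were sharp in places. A step was measured at 768 window borders of the arm as the mean of the 5 windows to the right minus that of the 5 to the left, and 29 upward and 31 downward steps were the largest within 10 kb on either side. The largest was a fall at 4334000, from 0.19 to -1.23, of -1.58 and -1.24 on the wild-type arrays and -1.41 and -1.45 on the labelled fft3Δ arrays. It forms the left edge of the late run from 4328001. The largest rise, at 3978000, went from -0.38 to 0.85, by 1.34 and 1.12 in wild type and 1.10 and 1.32 in labelled fft3Δ.

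The other falls of the 6 largest were at 4492000 (-1.08), 4744000 (-1.06), 4094000 (-1.03), 5256000 (-0.90) and 4446000 (-0.87), as 4-array means. The other rises were at 4706000 (1.06), 5300000 (0.92), 5216000 (0.90), 4354000 (0.88) and 4948000 (0.88). The rises at 4706000, 5300000 and 4354000 lead out of the deep stretches and end below 0. All 12 had one sign on all 4 arrays, and 6 exceeded 1 in size. The step at 4354000 was the least even, at 1.09, 0.35, 1.22 and 0.84, and that at 4744000 was -1.32, -0.61, -1.24 and -1.07, with wild-type array 2 the smallest both times. None of the 768 arm steps differed between genotypes in limma's fit across all 6115 borders of the 3 chromosomes (adjusted p = 0.955 or higher, against 0% called over all borders). At an unadjusted p under 0.05, 8 arm steps were higher and 6 lower in labelled fft3Δ, where all borders gave 0.998% and 1.03%. Leaving out wild-type array 1 brought 55 arm steps past the adjusted threshold, which are 7.16% where all borders gave 5.66%, with the lone wild-type array assumed to vary like the labelled fft3Δ pair.

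Peaks resembling origins were taken as the highest smoothed probe within 5 kb on either side, at a height over 0.74, which is 1 background SD above the median. The arm had 34 of the 302 such peaks on the 3 chromosomes. Their heights, on the mean of the 4 arrays, had a median of 0.92, and 10 exceeded 1. The peaks just inside the threshold were at 4091401 (0.76) and 4127701 (0.78), and the local maxima just outside it were at 5060701 (0.73) and 5028901 (0.73). The median spacing was 17700 bp and the shortest 5100 bp. The longest gap without a peak, 316800 bp from 4525501 to 4842301, spans the longest late run, and gaps of 255300 bp after 5170801 and 199200 bp after 4320301 span the other deep ones. All 34 peaks lay in early runs, which follows in part from the height that both rules use.

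The tallest peak by its smoothed height was at 4068301 (1.28). Its mean over probes within 1 kb was 0.88 and 0.88 on the wild-type arrays and 0.82 and 1.0 on the labelled fft3Δ arrays, and it was found in each array alone with its top moving by 300 bp. The peak at 5153101 (1.27) had 0.93 and 1.15 in wild type and 1.12 and 1.08 in labelled fft3Δ, and the window on it, 5152001, was the highest of the arm at 0.95, 1.18, 1.14 and 1.14. Its input was high as well, at 1.76, 0.31, 1.59 and 1.59. The peak at 4953001 (1.20) had 1.05 and 0.97 against 0.94 and 0.92, with both labelled fft3Δ arrays below both wild-type arrays.

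The peak at 4075501 (1.20) had 1.10 and 1.30 in wild type and 0.62 and 0.94 in labelled fft3Δ, so the groups did not overlap. The peak at 3984901 (1.19) was the most uneven, with 1.06 and 1.53 in wild type and 0.50 and 1.29 in labelled fft3Δ. The windows on and beside it, 3984001 and 3986001, were among the 5 highest of the arm, at 4-array means of 1.10 and 0.99, with 4952001 and 4074001 at 0.97 and 0.96. The peak at 4525501 (1.16), inside the early run from 4510001, had 1.0 and 1.04 against 0.87 and 0.97.

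The peak at 4135201 (1.10) went the other way, at 0.69 and 0.82 in wild type and 1.01 and 0.94 in labelled fft3Δ. The last of the 10 tallest were at 3956101 (1.08), 4059001 (1.02) and 3951001 (1.01). In the first, levels were 1.02, 0.88, 0.49 and 0.92, in the second 1.13, 0.82, 0.62 and 0.93, and in the third 0.73, 1.01, 0.74 and 0.81. Labelled fft3Δ array 1 was the lowest of the 4 arrays in the first and second.

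**Figure D3:**
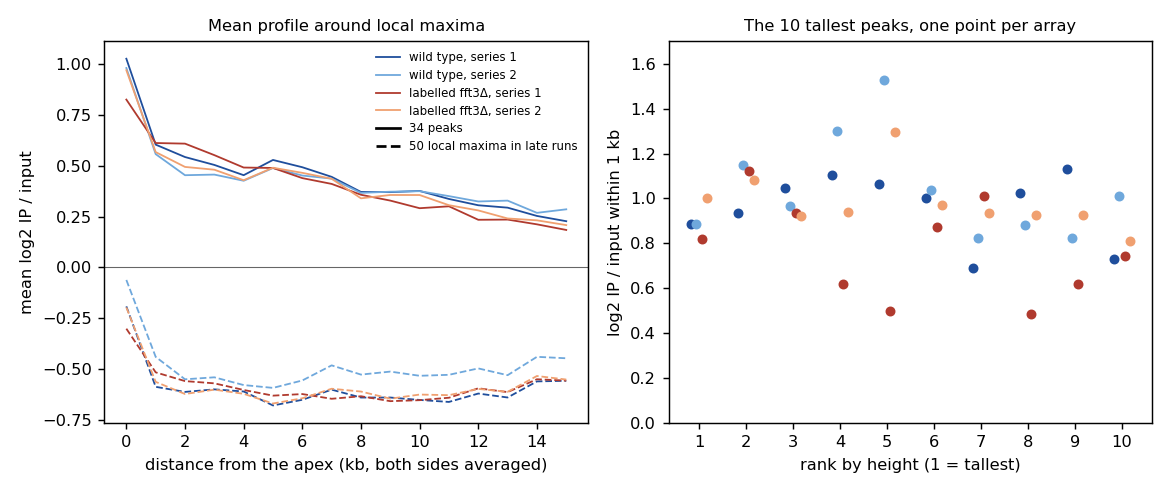
Left, mean log2 ratio (vertical axis) against the distance from the apex in kb for the 34 peaks (solid lines) and for the 50 local maxima in late runs (dashed lines), with a line per array. Right, log2 ratio within 1 kb of the 10 tallest peaks, ranked by height, with a point per array: labelled fft3Δ array 1 is lowest at 6 of them and wild-type array 2 highest at 5.

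Around the peaks the signal fell over many kilobases. The mean over the 34 peaks was 1.03, 0.98, 0.83 and 0.97 at the apex, where the maximum itself was chosen, 0.60, 0.56, 0.61 and 0.57 at 1 kb, 0.38, 0.38, 0.29 and 0.36 at 10 kb, and 0.23, 0.29, 0.18 and 0.21 at 15 kb. Some local maxima of the arm missed the threshold. Of 117 in all, with the 34 peaks counted among them, 64 lay in early runs and 50 in late runs. All 34 peaks were among the 64. Those in late runs had a median height of -0.16, and 32 of them were below 0 and 4 below -1. Their rise was taken above the higher of the lowest smoothed values within 10 kb on each side. It had a median of 0.56, against 0.64 in early runs with the 34 peaks included. Any local maximum has a rise above 0 by this rule, so the rise does not show that a maximum is an origin. The 4 lowest maxima of late runs were at 4686601, 4695601, 5286301 and 5268001, inside the deep stretches. Over the maxima of late runs the mean was -0.19, -0.06, -0.30 and -0.20 at the apex, which was also chosen as the maximum. At 1 kb from them it was -0.59, -0.44, -0.52 and -0.56, and at 10 kb -0.65, -0.53, -0.65 and -0.63. Both sets dropped within the first kb from an apex chosen as the maximum. From 1 to 10 kb the mean fell further around the peaks than around the maxima of late runs, on all 4 arrays.

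Single peaks varied from array to array. Called in each array alone, with a threshold from that array's own signal, the arm had 46 and 53 peaks on the wild-type arrays and 42 and 36 on those labelled fft3Δ. The difference of -10.5 had the smallest p that 2 arrays against 2 can give (exact permutation test, two-sided, p = 0.333). No share over all peaks is given for these counts, so they do not set the arm apart. Of the 34, an array alone gave back 27 and 23 in wild type and 16 and 28 in labelled fft3Δ within 2000 bp. All 4 arrays gave back 4 peaks, at 4068301, 4135201, 4153801 and 4248301, and 3 arrays gave back 19, 2 arrays 10 and 1 array 1. Leaving out an array can only keep or raise the number of the 34 given back by every remaining array. That number went from 4 to 16 without labelled fft3Δ array 1 and to 9 without wild-type array 2. The top of a peak moved between the 4 arrays by a median of 3750 bp, by 1500 bp between the wild-type arrays and by 1800 bp between those labelled fft3Δ. A range over 4 arrays is at least as wide as that over 2 of them, so these values do not show a shift between genotypes.

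Input at the peaks had a median of 0.42 on wild-type array 1, -0.01 on wild-type array 2, 0.45 on labelled fft3Δ array 1 and 0.35 on labelled fft3Δ array 2. It was above 0 at 31, 16, 31 and 32 of the 34 peaks. The Cy5 signal alone was above its median at 33 of the 34 on all 4 arrays. A set of 133 arm probes carries a letter f or m in the name, whose meaning is not given in the sources used here. Their mean was 0.35, 0.64, 0.24 and 0.40 against -0.16, -0.12, -0.16 and -0.17 for the others, and 95 lay in early and 36 in late runs. The top probe of 4 peaks was one of them, at 3984901, 4059001, 4091401 and 4519501, and without the marked probes the 4-array means of these peaks within 1 kb went from 1.10 to 1.05, from 0.87 to 0.84, from 0.66 to 0.58 and from 0.63 to 0.48.

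None of the 782 arm windows differed between genotypes in limma's fit across all 6214 windows of the 3 chromosomes (adjusted p = 0.883 or higher in the arm, against 0% called over all windows). At an unadjusted p under 0.05, 15 arm windows were higher in labelled fft3Δ, which is 1.92% where all windows gave 3.67%, and 9 were lower, which is 1.15% where all windows gave 1.24%. Both labelled fft3Δ arrays lay above both wild-type arrays in 86 arm windows and below them in 163, which are 11% and 20.8%, where all windows gave 15.1% and 19.6%. The median difference was -0.05 over the arm windows and -0.02 over all windows. Of the 782 arm windows, 467 had the lower mean in labelled fft3Δ. The sign was the same in both series in 427, with 264 lower and 163 higher. The differences of the 2 series correlated at 0.14 over the arm windows. No share over all windows is given for these counts of lower and higher windows, so they do not set the arm apart from the other windows. Leaving out wild-type array 1 brought 1 arm window past the adjusted threshold, which is 0.128% where all windows gave 0.676%.

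Of the 5 arm windows with the highest moderated t, 5430001 had -0.22 and -0.34 in wild type and 0.41 and 0.11 in labelled fft3Δ, a difference of 0.54 (SE 0.15), with 0.63 in series 1 and 0.45 in series 2 (limma, adjusted p = 0.883). Window 4528001 had 0.14 and 0.29 against 0.84 and 0.59, and window 5380001 had -0.52 and -0.51 against -0.08 and -0.11. Windows 5172001 and 5470001 differed by 0.39 and 0.50. The groups did not overlap in any of the 5, which follows in large part from their choice by t. None of them passed the adjusted threshold. With the series as a block, 5430001 alone of the arm's windows passed it (limma, adjusted p = 0.0326), which is 0.128% of them where all windows gave 1.79%.

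Of the 5 with the lowest t, window 4198001 had 0.50 and 0.58 in wild type and 0.14 and 0.19 in labelled fft3Δ, a difference of -0.38 (SE 0.13). Window 4312001 had 0.74 and 1.09 against 0.23 and 0.63, and window 3900001 had 0.31 and 0.74 against -0.13 and 0.23. Windows 4076001 and 4436001 differed by -0.36 and -0.33. The adjusted p in limma's fit was 0.883 for all 5. In the Cy5 signal alone the differences of 4312001, 3900001 and 4436001 turned, to 0.15, 0.028 and 0.022.

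Differences in the ratio moved with differences in both channels, most clearly in series 1. In series 1, the difference of labelled fft3Δ from wild type in the ratio correlated at -0.88 with that in the input over the 782 windows, and in series 2 at -0.35, where the 2 measures share the Cy3 channel. Against the difference in the Cy5 signal, which the ratio also contains, the correlation was 0.91 in series 1 and 0.20 in series 2. The ratio difference of series 1 correlated at 0.14 with that of series 2. Window 5430001, for example, had an input of -0.79 and -0.46 in wild type and -1.10 and -0.88 in labelled fft3Δ, and window 4312001 had 0.84 and -0.01 against 1.10 and 0.91. The part of either channel in these differences was not tested.

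**Figure D4:**
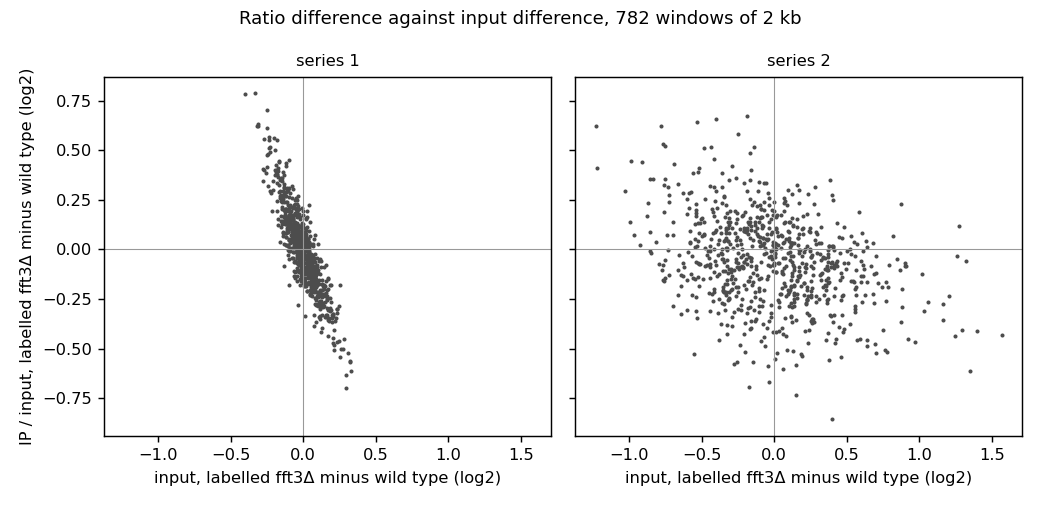
Difference between labelled fft3Δ and wild type in the log2 ratio (vertical axis) against that in the log2 input (horizontal axis), with a point per 2 kb window of the arm and a panel per series. The points of series 1 fall along a descending band (r = -0.88) and those of series 2 form a wider cloud (r = -0.35).

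None of the 34 arm peaks differed between genotypes in the fit across all 302 peaks (limma, adjusted p = 0.18 or higher in the arm, against 0% called over all peaks). Unadjusted, 1 was higher in labelled fft3Δ, where all peaks gave 2.98%, and 3 were lower, where all peaks gave 8.28%. The median difference was -0.07 over the arm peaks and -0.09 over all peaks, and 20 were lower and 14 higher in the labelled fft3Δ mean. Both labelled fft3Δ arrays lay below both wild-type arrays at 8 peaks and above them at 4, which are 23.5% and 11.8%, where all peaks gave 31.8% and 11.3%.

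The peak at 4075501 had the lowest t, with a difference of -0.42 (SE 0.15; limma, adjusted p = 0.18), of -0.49 in series 1 and -0.36 in series 2. Next came 4091401, with 0.70 and 1.02 in wild type and 0.30 and 0.63 in labelled fft3Δ, a difference of -0.39 that was -0.11 without the marked probes, which are 5 of its 7 (limma, adjusted p = 0.256 and 0.739). The third was 3984901, whose difference of -0.40 was -0.56 in series 1 and -0.24 in series 2, and -0.17 without the marked probes. Without wild-type array 1 the difference at 3984901 was -0.63 and passed the threshold (limma, adjusted p = 0.0371), and without labelled fft3Δ array 2 it was -0.80 (adjusted p = 0.00925), each making 1 arm peak called, or 2.94%, where all peaks gave 1.99% and 2.98%. Without wild-type array 2 it was -0.17, and without labelled fft3Δ array 1 it was -0.00143 (limma, adjusted p = 0.981 and 0.997). The peaks at 4188901 and 3956101 differed by -0.27 and -0.25, the last by -0.54 in series 1 and 0.04 in series 2. In the Cy5 signal alone all 5 differences turned positive, to 0.26 at 4075501, 0.035 at 4091401, 0.40 at 3984901, 0.00443 at 4188901 and 0.15 at 3956101. The series disagreed there: at all 5 peaks Cy5 was lower in labelled fft3Δ in series 1 and higher in series 2. At 4075501, for example, it was 2.21 and 1.47 in wild type and 2.02 and 2.18 in labelled fft3Δ.

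The peak at 5041801 had the highest t, with 0.61 and 0.38 in wild type and 0.94 and 0.66 in labelled fft3Δ, a difference of 0.30 (SE 0.15; limma, adjusted p = 0.385). The peaks at 4842301 and 4135201 differed by 0.22 each. Those at 4964701 and 5018401 differed by 0.13 each, the last by -0.05 in series 1 and 0.32 in series 2, and the groups overlapped at both.

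None of the 31 blocks of 50 kb inside the arm differed in the fit across all 251 blocks (limma, adjusted p = 0.893 or higher in the arm, against 0% called over all blocks). None reached an unadjusted p under 0.05, where all blocks gave 1.99% higher and 0.398% lower. The largest difference in size was 0.13. Leaving out wild-type array 1 brought 2 arm blocks past the adjusted threshold, which are 6.45% where all blocks gave 7.17%. Both labelled fft3Δ arrays lay below both wild-type arrays in 8 blocks, which are 25.8% where all blocks gave 18.3%, and above them in 1, which is 3.23% where all gave 10.8%.

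The lowest t belonged to the block from 4200001, with 0.26 and 0.33 in wild type and 0.18 and 0.19 in labelled fft3Δ, a difference of -0.11 (SE 0.05; limma, adjusted p = 0.893). The blocks from 4050001 and 4100001 differed by -0.09 each, and the first had the highest level of the arm, at 0.54 and 0.57 against 0.45 and 0.49. These 3 blocks are adjacent or nearly so, all BrdU-rich, and in the Cy5 signal alone their differences were 0.037, 0.077 and 0.011. In all 3 the Cy5 signal was lower in labelled fft3Δ in series 1 and higher in series 2. For the block from 4200001 it was 0.49 and 0.33 in wild type and 0.43 and 0.46 in labelled fft3Δ. The highest t belonged to the blocks from 5150001, 4750001 and 4400001, at 0.07, 0.05 and 0.05, whose sign turned when arrays were centred on their mode. The lowest levels were those of the blocks from 5250001, at -1.43, -1.31, -1.31 and -1.37, from 4650001, at -1.34, -1.10, -1.29 and -1.33, and from 4350001, at -1.01, -0.90, -1.02 and -1.04.

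**Figure D5:**
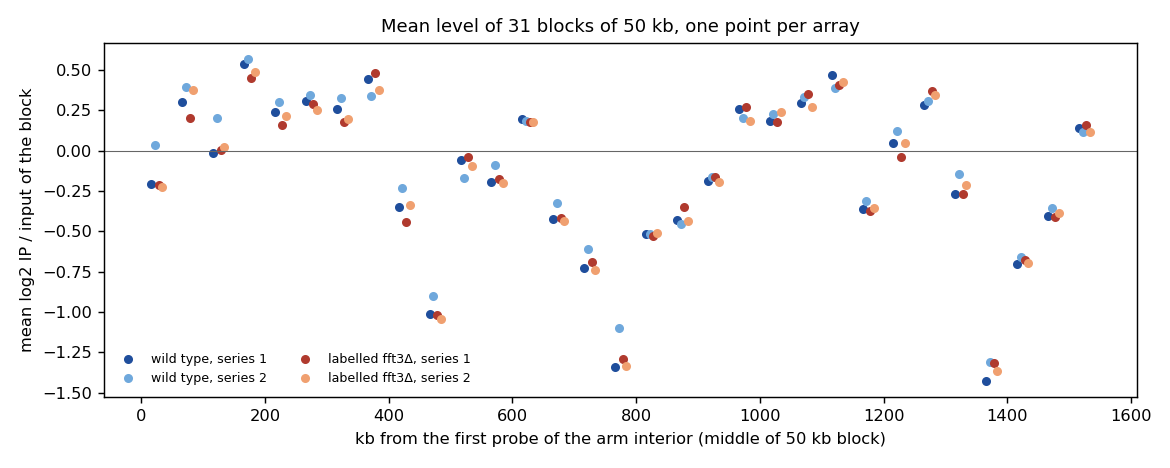
Mean log2 ratio of each of 31 blocks of 50 kb (vertical axis) against the distance of its middle from the first probe of the arm (horizontal axis, kb), with a point per array. The 4 points of a block lie close together beside the spread between blocks, from about 0.57 in the highest to -1.43 in the lowest.

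Over the whole arm, wild type had a mean of -0.12 ± 0.04 and labelled fft3Δ of -0.15 ± 0.003 (SD, n = 2 each). Both labelled fft3Δ arrays were below both wild-type arrays, by 0.002 in series 1 and 0.06 in series 2, and the difference of -0.03 had the smallest p the design allows (exact permutation test, two-sided, p = 0.333). The SD of the windows was 0.69 and 0.60 in wild type and 0.67 and 0.65 in labelled fft3Δ, and these groups overlapped.

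Beside the other interiors of chromosomes 1 and 2, which are the left arm of chromosome 1 and both arms of chromosome 2 with 3794 windows, the arm did not stand out in its mean. Its mean was higher than their pooled mean by 0.02 ± 0.02 (SD, n = 4 arrays) and higher on 3 of 4 (exact sign-flip permutation test, two-sided, p = 0.25). That pool holds unlike arms. The left arm of chromosome 2 lay above this arm on all 4 arrays, at -0.01, 0.05, 0.007 and 0.0008. Below it on all 4 lay the left arm of chromosome 1, at -0.19, -0.16, -0.19 and -0.19. So did the right arm of chromosome 2, at -0.21, -0.21, -0.18 and -0.21. Against the pooled interiors, the windows of the chromosome 1 right arm were more spread, with an SD larger by 0.06 ± 0.008 on 4 of 4 arrays. More of them exceeded 0.5, by 4.49 ± 0.98 percentage points, and more fell under -1, by 1.02 ± 0.18 percentage points. Peaks called in each array alone were denser, at 2.30 to 3.39 per 100 kb against 1.79 to 2.64. Each of these 4 differences had the same sign on all arrays and the smallest p that 4 arrays allow (exact sign-flip permutation test, two-sided, p = 0.125, Benjamini-Hochberg adjusted over 5 measures 0.156), so none reached significance, and the arrays share their probes.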

How the data were processed

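The members, the lists and the rules for runs, peaks and steps were chosen with earlier results of these data known. Per the submitters' processing notes the arrays were read with Agilent Feature Extraction. The file headers give its version as 11.5 on wild-type array 2 and as 12.0 elsewhere. In the deposited scanner files each spot has a processed intensity for Cy5 and for Cy3, from which the software had taken the background and to which it had applied a linear dye factor, per the file headers. The deposited log10 column, red over green per the file headers, was used only to verify which way the ratio runs. A linear ratio in the deposited series matrix was processed Cy5 over Cy3, uncentred, with a median gap on the log2 scale of 0.00179 on wild-type array 2 and of at most 3.46e-10 on the others. Flag columns in the deposited files (other units) give spot uniformity, saturation and the call above background. All arrays had one dye orientation with no swap, so dye bias does not cancel.

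Flagged non-uniform spots were left out, log2 ratios were centred on each array's median over all 41551 probes, and no loess or quantile step was used. Windows of 2 kb with 3 or more probes, blocks of 50 kb with 10 or more windows, peaks (probes smoothed over 500 bp) and steps were each tested over all 3 chromosomes with limma 3.58.1 (lmFit, eBayes; R 4.3.3; genotype as the only term, two-sided, Benjamini-Hochberg at 0.05), after a check on simulated data. Values per array were compared with exact permutation tests. Named items are all runs with values for the 5 highest and 5 lowest, the 10 tallest peaks, the 6 largest steps each way, the windows highest and lowest in level, and the windows, peaks and blocks with the highest and lowest t (5, 5 and 3 each way). Other blocks, peaks and stretches given with values were chosen after their values were seen. The files have no mean signal, so the normexp alternative (offset 50) took the median signal. Other interiors lay over 100000 bp from the outermost probe and the pericentromere. The alternatives covered the signal, background, normalization, centring, filters, sizes and single arrays. Precision is limited by 2 arrays per genotype.

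Series 1 and 2 are numbers shared by the groups, and deviations from the group means correlated at 0.27 over the arm windows, but with 2 pairs this does not show pairing.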

Additional observations from a re-analysis of the deposited data

How the results depend on the processing

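All 42 named levels and step sizes kept their sign under every alternative that gave them, but their sizes moved: by over 1.5 times for 16 under loess, all smaller, for 16 under the Cy5 signal alone, 15 of them larger, and for 5 under centring on the mode, all smaller. The peak at 4953001, for example, went from 0.97 to 0.42 under loess and 1.99 in Cy5 alone, and the early run from 4218001 from 0.41 to 0.18 under mode centring. All 26 named differences kept theirs under normexp, loess and all spots. They also did so under the series matrix, which holds nearly the same ratio. The block cannot change a difference in this balanced design, so it is no check of sign. The Cy5 signal alone kept 14 of 26. It turned windows 4312001, 3900001 and 4436001 to 0.15, 0.0275 and 0.0217, the blocks from 4200001, 4050001, 4100001 and 4750001 to 0.0374, 0.0771, 0.0109 and -0.0318, and peaks 4075501, 4091401, 3984901, 4188901 and 3956101 to 0.26, 0.0348, 0.40, 0.00443 and 0.15. It gave an early minus late contrast of 1.21, a genotype difference in it of 0.23, differences from the other interiors of 0.0478 (mean) and 0.0973 (SD), 85 arm peaks and 13 peaks in every array. At the 5 peaks it turned, Cy5 was lower in labelled fft3Δ in series 1 and higher in series 2. The same held for the blocks from 4200001, 4050001 and 4100001. Normexp gave a contrast of 1.24, a genotype difference in it of -0.12 and 0 peaks in every array, and loess a contrast of 0.74, an SD difference of 0.0400 and 2 such peaks. Centring on the mode moved the arm's genotype difference to -0.12 and turned the blocks from 4400001, 4750001 and 5150001 to -0.0410, -0.0371 and -0.0204. The replicate block called 1 arm window, higher (5430001), and changed no other call in the arm. Leaving out single arrays gave 0 to 1 windows, 0 to 2 blocks, 0 to 55 steps and 0 to 1 peaks called, the upper values without wild-type array 1 (for peaks also without labelled fft3Δ array 2), 37 to 44 arm peaks, 5 to 16 peaks in every array, and a genotype difference in the contrast of -0.0383 to 0.11. It gave -0.0107 to 0.10 for the block from 4400001 and -0.0336 to 0.30 for the peak at 5018401, negative without wild-type array 2. A peak threshold of 0.5 background SD gave 66 arm peaks and of 2 SD gave 0, which leaves no peak to test. A running mean of 21 windows gave 13 runs instead of 23. Leaving out the f and m probes, chosen after seeing the data, changed no call, though it moved the peaks at 4091401 and 3984901 to -0.11 and -0.17. The cause of these changes was not tested. With 2 arrays per genotype, small differences could not be resolved.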
